A study of Arabidopsis thaliana with 30 samples.

Results

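The plastid genome genes described here are the 69 genes that lie on the plastid's own circular chromosome and have a probe set of their own on the array. They were picked by locus tag from the 13356 genes with probe sets that match 1 gene. Their products fall into 9 roles: 15 subunits of photosystem II, 5 of photosystem I, 6 of the cytochrome b6f complex, 6 of the ATP synthase, the large subunit of Rubisco, 10 subunits of the NDH complex, 15 ribosomal proteins, 4 subunits of the plastid RNA polymerase and 7 others. The rule used position in the genome and no measured value, but the set was chosen with earlier results of these data known. A total of 68 passed the filter on low signal and were tested, and ndhF, with signals between 4.4 and 75.1 on the 30 arrays, did not.

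RNA of Arabidopsis thaliana roots, accession Col-0, was measured on 30 single-colour arrays, 3 for each of 10 groups. Seedlings 1 week old, grown in a light and dark cycle on medium with sucrose, had received 5 µM of the natural auxin IAA, or solvent alone (mock), for 2 h. Cells carrying a green fluorescent reporter were then freed by 1 h of wall digestion and sorted. The study asked how separate regions of the root respond to auxin. Each of 5 sample types has an auxin group and a mock group: stele (reporter pWOL::GFP), xylem-pole pericycle (enhancer trap E3754), epidermis with lateral root cap (pWER::GFP, called epidermis below), columella (enhancer trap PET111), and intact roots that were not digested or sorted. The reporter's promoter or insertion defines the cells of each sorted group, and per the design text digestion of auxin-treated roots was done with 5 µM IAA still present, so sorted cells and intact roots differ in exposure time, digestion and sorting at once. These cannot be told apart. The labels do not say whether arrays of a group came from separate cultures, so p-values measure the spread between these samples. In bulk RNA, fewer cells of a type and less RNA per cell cannot be told apart.

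Plastids keep a small genome that encodes core subunits of the photosynthetic complexes and part of the machinery that expresses them; most other plastid proteins are encoded in the nucleus. A multi-subunit bacterial-type polymerase, whose core is encoded by rpoA, rpoB, rpoC1 and rpoC2, transcribes most photosynthesis genes in green tissue, and a nuclear-encoded phage-type polymerase transcribes many of the genes for the expression machinery. Many plastid genes are transcribed together with their neighbours and then processed. Roots hold non-green plastids, among them the starch-filled amyloplasts of the columella.

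Signals are the authors' MAS5 intensities, scaled so that the trimmed mean of every array was 250.0. Array medians ran from 54.4 to 83.0, and within groups the correlation between arrays across probe sets ran from 0.938 to 0.982. Of the marker lists for root tissues, 2 of 7 epidermal genes, 1 of 2 pericycle genes, 2 of 11 endodermis and cortex genes, 0 of 10 stele genes and 0 of 5 columella genes had a single-gene probe set, so the stele and columella labels could not be checked. The epidermal expansin EXPA7 averaged 295 in mock epidermis and between 83.6 and 144 in the other mock sorted tissues. LBD16, a lateral root regulator, averaged 178 in mock pericycle and between 13.8 and 64.3 in the other mock sorted tissues. The endodermal receptor kinase SGN3 averaged 194 in mock pericycle, 186 in mock stele, 110 in mock columella and 78.0 in mock epidermis, against 880 in mock intact roots. On the endodermis and cortex list, the other gene, C1, averaged between 102 and 361 in the mock sorted tissues, against 318 in mock intact roots. Set against the mean of the other mock sorted tissues, both genes were called higher in pericycle in limma (median log2 difference 0.76). Of all genes so compared 26.8% were. Both were lower in epidermis (-0.98, against 33.8% of genes). In columella 1 was higher, and in stele 1 was higher and 1 lower. Their part in the levels of plastid genes was not tested.

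Averaged over the 4 sorted tissues, nearly the whole set of plastid genome genes rose with auxin, and photosynthesis genes rose alongside genes for the plastid's own ribosome and polymerase. The average response was called in 65 of 68 genes, all of them higher, where 24.9% of all 9324 tested genes were called higher and 16.2% lower (limma, Benjamini-Hochberg adjusted p under 0.05); at an unadjusted p under 0.05, 67 genes were higher and 0 lower. The median log2 change of the 68 genes was 0.60, a 1.52-fold rise, with all 68 above 0, and the median of all tested genes was 0.09. Called genes made up 32 of 33 photosynthesis genes outside the NDH complex, 9 of 9 NDH genes and 18 of 19 genes for ribosomal proteins and polymerase subunits. accD (0.26 ± 0.14 SE, adjusted p = 0.116), petG (0.38 ± 0.17, adjusted p = 0.0767) and rpl36 (0.39 ± 0.18, adjusted p = 0.0809) did not pass the test.

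**Figure D1:**
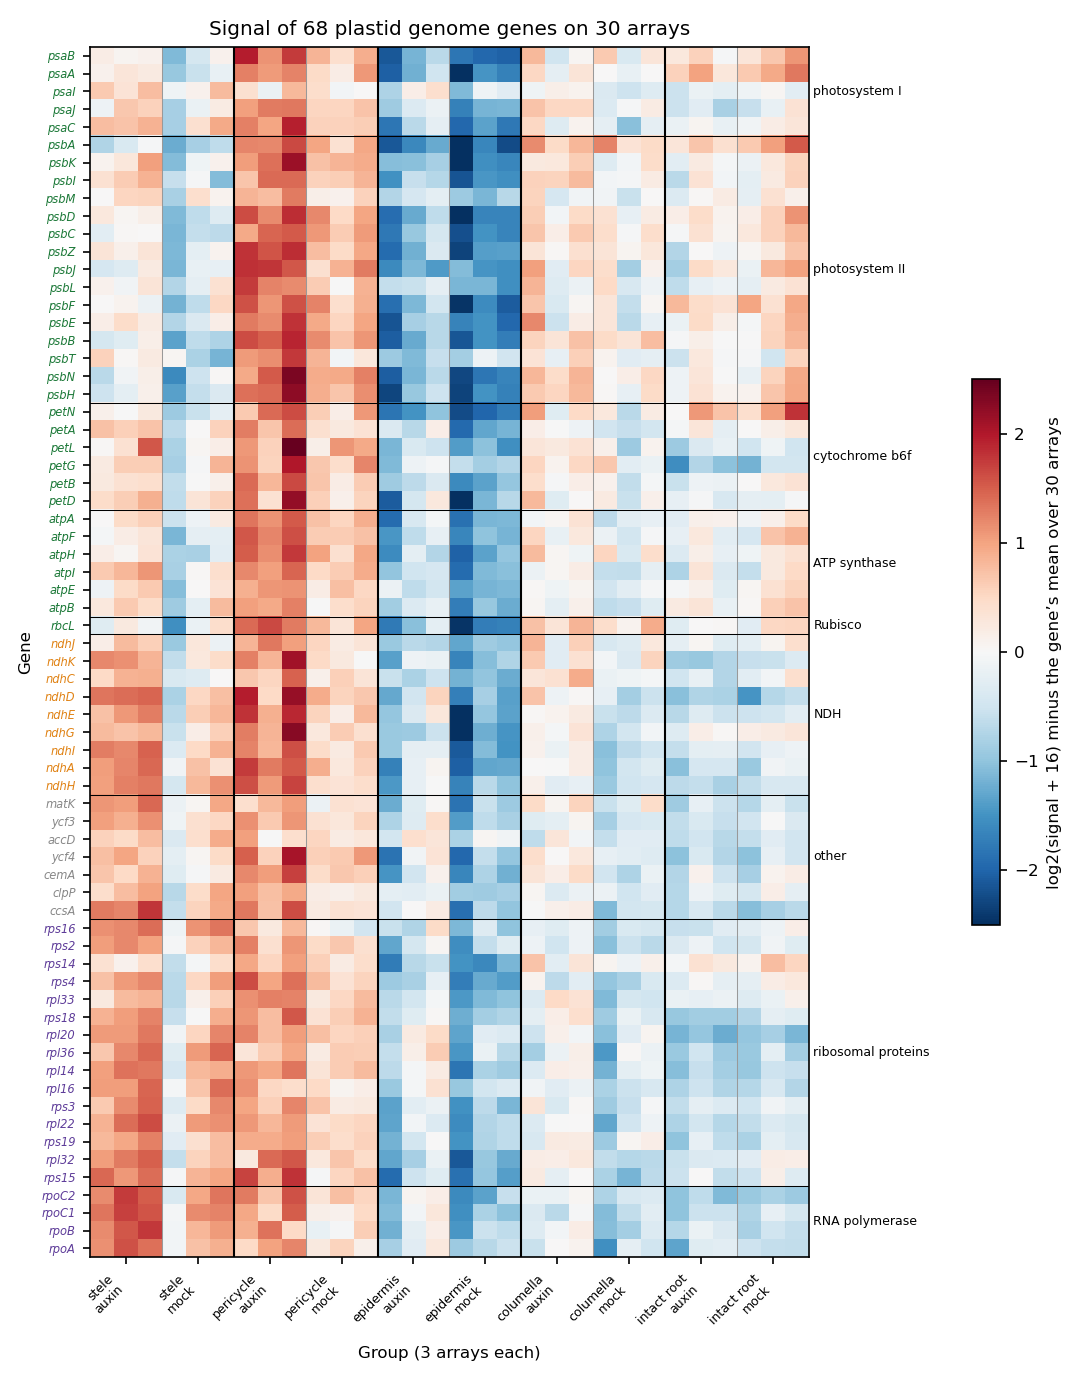
Signal of the 68 tested plastid genome genes (rows, grouped by role, labels green for photosynthesis, orange for NDH, grey for other and purple for ribosomal and polymerase genes) on 30 arrays (columns, 3 per group, auxin left of mock within each sample type). Colour gives log2(signal + 16) minus the gene's mean over the 30 arrays. Auxin columns are mostly redder than mock columns in the 4 sorted tissues, mock epidermis is blue in nearly every row, and the polymerase and ribosomal rows are redder in stele than the photosystem rows.

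The largest rises were in genes of the NDH complex, which returns electrons from photosystem I into the electron transport chain, and in their neighbours. ndhE rose by 0.93 ± 0.16 (adjusted p = 2.28e-05), ndhD by 0.92 ± 0.19, ndhI by 0.91 ± 0.13 and ndhG by 0.84 ± 0.16 (log2 ± SE, average of the 4 sorted tissues). ccsA, needed to attach haem to c-type cytochromes, rose by 0.97 ± 0.15, the highest of the 68. psaC, which encodes the photosystem I subunit that carries its terminal iron-sulfur clusters, lies between ndhD and ndhE and rose by 0.70 ± 0.16 (adjusted p = 0.000694).

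On the arrays, psaC had signals of 2874, 2791 and 3111 in auxin-treated stele, against 948, 2246 and 3248 in mock stele. Its signals in pericycle were 4076, 3352 and 6572 with auxin, against 2515, 2528 and 2610 in mock. In epidermis psaC had 469, 1051 and 1450 with auxin, against 422, 654 and 480 in mock. Thus the pericycle groups did not overlap, while in stele mock arrays were both the lowest and the highest of the 6, and in epidermis the lowest auxin array lay among the mock arrays. In columella psaC had 2439, 1349 and 1800 with auxin, against 1433, 815 and 1445 in mock. In intact roots the mean of psaC was lower with auxin, with 1505, 1769 and 1474, against 1596, 1923 and 2088 in mock. The groups overlapped in columella and in intact roots, and psaC was called in neither.

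ndhE had 5166, 2715 and 5446 in auxin-treated pericycle, against 2162, 1642 and 2559 in mock pericycle. In epidermis it had 738, 1136 and 1775 with auxin, against 224, 736 and 565 in mock, and in columella 1497, 1551 and 1713 with auxin, against 987, 929 and 1144 in mock. ndhE was thus higher on every auxin array than on any mock array in pericycle, epidermis and columella. In stele it had 2426, 3102 and 3594 with auxin, against 913, 2251 and 2608 in mock, and in intact roots 903, 1165 and 1006, against 1019, 1065 and 1220 in mock, so the groups overlapped in both.

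ndhG had 987, 723 and 1964 in auxin-treated pericycle, against 475, 623 and 527 in mock pericycle. In epidermis ndhG had 201, 203 and 268 with auxin, against 41.0, 161 and 132 in mock. All auxin arrays were above all mock arrays in these 2 tissues, in stele (691, 653 and 706 with auxin, against 262, 446 and 609 in mock) and in columella (434, 381 and 503 with auxin, against 226, 284 and 378 in mock). In intact roots ndhG had 314.9, 445.3 and 401.6 with auxin, against 445.4, 461.4 and 489.9 in mock, so all auxin arrays lay below all mock arrays, by a narrow margin.

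**Figure D2:**
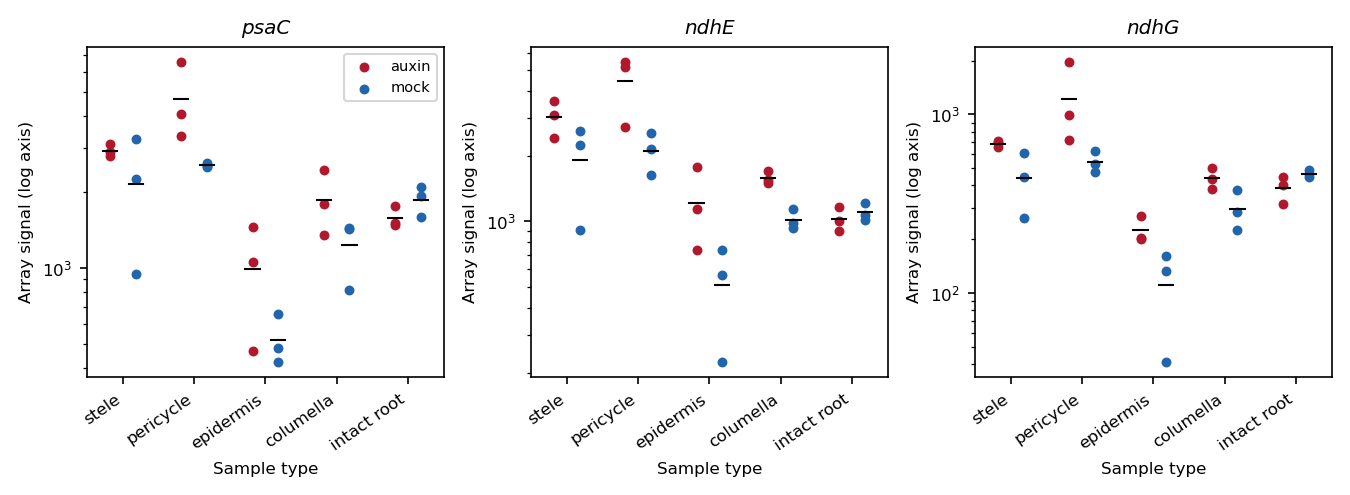
Array signal (log axis) of psaC, ndhE and ndhG in the 5 sample types. Each point is 1 array, red for auxin and blue for mock, and black bars are group means. ndhG lies between 381 and 503 in auxin-treated columella and between 226 and 378 in mock columella, and the 2 treatments are in the opposite order in intact roots.

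Among the 33 photosynthesis genes outside NDH the values ran from 0.36 for psaI to 0.79 for petA and overlapped with those of the NDH genes, of which ndhJ was the lowest at 0.57. psbI, psbK and psbH of photosystem II rose by 0.77 ± 0.14, 0.74 ± 0.16 and 0.61 ± 0.16 (log2 ± SE, average of the sorted tissues), and psaJ and psaA of photosystem I by 0.69 ± 0.14 and 0.57 ± 0.15. petA, which encodes cytochrome f, rose by 0.79 ± 0.12, petL by 0.72 ± 0.21 and petD by 0.61 ± 0.21. The ATP synthase genes atpI, atpB and atpF rose by 0.69 ± 0.14, 0.66 ± 0.13 and 0.60 ± 0.14. rbcL, the large subunit of the carbon-fixing enzyme Rubisco, rose by 0.55 ± 0.17 (adjusted p = 0.00806).

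Genes of the expression machinery rose by similar amounts. The polymerase subunits rpoB, rpoC2 and rpoC1 rose by 0.70 ± 0.15, 0.70 ± 0.16 and 0.65 ± 0.15, and the ribosomal protein genes rpl32, rps15 and rpl33 by 0.80 ± 0.15, 0.78 ± 0.16 and 0.74 ± 0.13 (log2 ± SE, average of the sorted tissues). matK, a maturase for plastid introns, rose by 0.65 ± 0.15 and cemA, an envelope membrane protein, by 0.71 ± 0.14. The median change was 0.55 over the 33 photosynthesis genes outside NDH, 0.84 over the 9 NDH genes and 0.62 over the 19 ribosomal and polymerase genes.

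The genes did not vary independently. After group means were taken away, a gene's deviations on the 30 arrays correlated with the mean of the other 67 genes at a median r of 0.788 (lowest 0.056, highest 0.941), so the 65 calls are not 65 separate pieces of evidence. Without the first mock stele array, the one of lowest plastid signal in its group, 60 genes were called; the count was 61 after quantile normalization and 65 without both first epidermis arrays, and no member was lower in any of these fits.

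Within single tissues fewer genes passed the test, although the direction was shared. In stele 24 of 68 genes rose (14.2% of all tested genes rose there), in pericycle 13 (6.56%), in epidermis 16 (5.95%) and in columella 1 (3.75%), and no member was called lower in any of the 4, where 10.1%, 5.69%, 6.82% and 3.34% of all tested genes were. At an unadjusted p under 0.05, 44, 45, 37 and 13 genes were higher in stele, pericycle, epidermis and columella and 0 were lower. Median log2 changes of the 68 genes were 0.69 in stele, 0.68 in pericycle, 0.63 in epidermis and 0.47 in columella, where the medians of all tested genes were 0.14, 0.07, 0.07 and 0.05. A total of 65 of 68 genes had a higher mean with auxin in all 4 sorted tissues, against 26.6% of all tested genes. The 3 exceptions, named for that reason, were psbT (-0.37) and psbJ (-0.01) in epidermis and psaB (-0.07) in columella. psbT was dim there, with 3.5, 1.2 and 8.8 in auxin-treated epidermis, against 4.4, 17.6 and 10.4 in mock epidermis.

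In stele the called genes included ndhD (1.24 ± 0.37), psbI (1.19 ± 0.28), ccsA (1.13 ± 0.29), rpl32 (1.04 ± 0.30), atpI (0.97 ± 0.28), and 3 of 4 polymerase genes, rpoB (0.88 ± 0.30), rpoA (0.86 ± 0.29) and rpoC2 (0.85 ± 0.32). In pericycle 6 of 9 NDH genes rose, led by ndhK (1.17 ± 0.32) and ndhH (1.06 ± 0.30), with rps15 (1.06 ± 0.31), psbZ (1.00 ± 0.30) and petB (0.80 ± 0.23). In epidermis ndhE (1.30 ± 0.33), petA (1.16 ± 0.24), ndhI (1.10 ± 0.26), psbK (1.10 ± 0.31) and rpl14 (1.01 ± 0.29) led. In columella the 1 called gene was rpl33 (0.85 ± 0.25, adjusted p = 0.0285). No member passed the F-test for a difference in response among the 4 tissues, in limma, where 2.58% of all tested genes passed; the count at an unadjusted p under 0.05 was 1.

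Read by arrays, all 3 auxin arrays lay above all 3 mock arrays for 31 of 68 genes in stele (25.5% of all tested genes), 42 in pericycle (13.2%), 18 in epidermis (16.3%) and 28 in columella (12.9%). The reverse order held for 0 of 68 in each of these tissues, where it held for 15.6%, 10.2%, 13.6% and 10.4% of all tested genes. In intact roots all auxin arrays lay below all mock arrays for 7 of 68 genes, or 10.3%, less than the 18.4% of all tested genes, and above for 0 (16.5%).

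**Figure D3:**
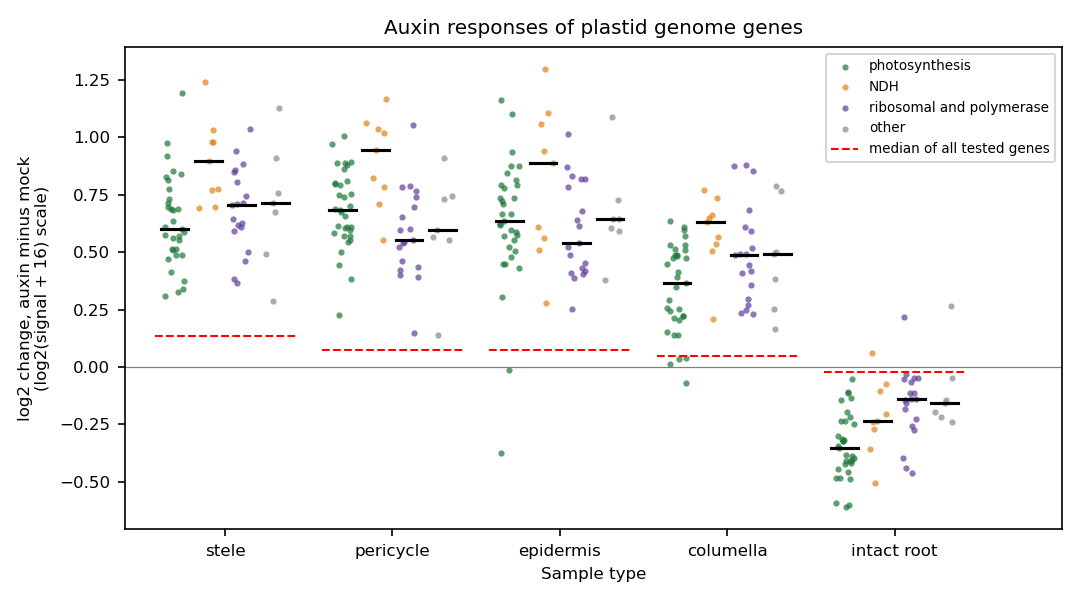
Log2 change with auxin (auxin minus mock) of each plastid genome gene in the 5 sample types. Points are genes, coloured by set, black bars are set medians and the dashed red line is the median of all tested genes, which is 0.14 in stele and lower in the others. The sets overlap within each sample type, the NDH genes have the highest medians in the 4 sorted tissues, and intact roots lie mostly below 0.

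These single-tissue counts rest on few arrays. The stele count was 3 without mock array 1, 10 and 7 without auxin arrays 2 and 3, and 38 without mock array 3; the epidermis count was 1 without mock array 1, 7 and 2 without auxin arrays 2 and 3, and 43 without auxin array 1; the pericycle count was between 1 and 7 without mock array 1, 2 or 3 or auxin array 1 or 3, 20 without the first mock stele array and 0 with array weights. The columella count was between 0 and 3 over fits that left out 1 array. Replicate 1 of epidermis lay low in both treatments, with a mean deviation of the members from their group of -0.59 in auxin and -0.43 in mock, and a block for replicate number within each sample type, chosen after the data were seen, gave 49 genes in stele, 39 in pericycle, 40 in epidermis and 9 in columella, although the labels do not say that the numbers pair the arrays.

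In intact roots no plastid genome gene was called with auxin in limma, where 6.61% of all tested genes rose and 5.34% fell, and at an unadjusted p under 0.05 there were 3 genes, all lower. The median log2 change was -0.24, against -0.02 over all tested genes, and 65 of 68 genes were below 0, where 52.1% of all tested genes were. The 3 with a higher mean were ccsA (0.26), rpoB (0.22) and ndhD (0.06). Set against the mean sorted response, the intact response itself was lower in 23 genes (5.81% of all tested genes) and higher in 0 (5.27%), and the difference was below 0 in all 68. At an unadjusted p under 0.05 it was lower in 51 and higher in 0. The largest differences were rpl32 (-1.24 ± 0.34, adjusted p = 0.0131), ndhC (-1.18 ± 0.28, adjusted p = 0.00367) and psbZ (-1.17 ± 0.33, adjusted p = 0.0168), with ndhG at -1.11 ± 0.35 (adjusted p = 0.0329).

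rpl32, a ribosomal protein gene, had 629, 718 and 725 in auxin-treated intact roots, against 756, 1054 and 1043 in mock intact roots. In stele rpl32 had 1919, 2305 and 2656 with auxin, against 611, 1365 and 1591 in mock, and in columella 1062, 1042 and 1123 with auxin, against 600, 562 and 576 in mock. The groups did not overlap in these 3 sample types, with the auxin arrays lower in intact roots and higher in stele and columella. In pericycle rpl32 had 1097, 2487 and 2751 with auxin, against 1116, 1500 and 1282 in mock, and in epidermis 369, 514 and 825 with auxin, against 201, 473 and 377 in mock, so the groups overlapped in both, with auxin array 1 the low one. psaC (-0.94 ± 0.36, adjusted p = 0.0924) and ndhE (-1.04 ± 0.37, adjusted p = 0.0637) did not pass this test. The count of 23 was 4 and 7 without mock intact arrays 3 and 2, 7 and 8 without auxin intact arrays 1 and 3, and 36 without the first auxin epidermis array; with array weights 3 genes were called lower in intact roots and 47 in the difference.

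Markers of other tissues moved between the same samples. Both epidermal genes fell with auxin in the sorted average and in each sorted tissue and were not called in intact roots: EXPA7 averaged 35.4 in auxin-treated epidermis, against 295 in mock epidermis, and 529 in auxin-treated intact roots, against 440.5 in mock intact roots. Both endodermis and cortex genes fell in intact roots, where SGN3 averaged 351 with auxin, against 880 in mock. In the sorted average SGN3 rose (0.62 ± 0.14) and C1 was not called, with a median of 0.16 over the 2 genes. The pericycle gene LBD16, itself a known auxin target, rose in all 4 sorted tissues (1.49 to 2.61) and in intact roots (1.69). Their part in the differences between intact and sorted responses was not tested.

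In untreated roots the level of plastid transcripts differed among the sorted tissues for 67 of 68 genes (F-test), where 35.0% of all tested genes differed. The 69 genes held between 1.54% and 1.76% of the summed signal on mock pericycle arrays, between 0.78% and 1.73% on mock stele arrays, between 0.89% and 1.08% on mock columella arrays and between 0.38% and 0.61% on mock epidermis arrays. In mock intact roots the share was between 1.00% and 1.42%. Epidermis lay below every other mock group without overlap, while stele overlapped with pericycle and with columella. With auxin the share was between 2.16% and 2.94% in pericycle, 1.69% and 2.09% in stele, 1.12% and 1.38% in columella, and 0.53% and 1.03% in epidermis.

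Against the mean of the other 3 mock tissues, pericycle was higher in 58 of the 67 genes (26.8% of the genes past the F-test were higher there) and lower in 0 (17.2%). These were 31 of 32 photosynthesis genes, 8 of 9 NDH genes and 14 of 19 ribosomal and polymerase genes, led by psbN (1.83 ± 0.28), psbH (1.76 ± 0.26) and psbD (1.74 ± 0.23). Epidermis was lower in 66 of the 67 (33.8%) and higher in 0 (26.5%), the largest differences being psbA (-2.43 ± 0.23), psbK (-2.25 ± 0.26) and rbcL (-2.21 ± 0.27), and accD, a subunit of the enzyme that begins fatty acid synthesis, was the 1 not called (-0.37 ± 0.22, adjusted p = 0.138). psaC was higher in pericycle (1.26 ± 0.26) and in stele (0.71 ± 0.26) and lower in epidermis (-1.79 ± 0.26), and ndhE and ndhG were called in the same directions in these 3 tissues.

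In stele the higher genes were mostly those of the expression machinery. Stele was higher in 17 of 19 ribosomal and polymerase genes but in 3 of 32 photosynthesis genes outside NDH, and lower in 3 photosystem II genes (29 higher and 3 lower of 67; 37.8% of the genes past the F-test were higher and 34.2% lower). The highest were rps16 (1.32 ± 0.23), rpoC1 (1.30 ± 0.25), rps15 (1.22 ± 0.26) and rpoB (1.11 ± 0.25), and the lower ones psbB (-0.82 ± 0.21), psbA (-0.65 ± 0.23) and psbC (-0.61 ± 0.20). Columella was higher in 11 genes, all for photosynthesis (psbA 1.48 ± 0.23, psbB 1.09 ± 0.21, rbcL 1.04 ± 0.27), and lower in 8, all ribosomal or polymerase genes (rps2 -0.80 ± 0.23, rpoA -0.78 ± 0.24); among all genes past the F-test 17.0% were higher and 21.5% lower there, so the members' shares, 16.4% and 11.9%, were not above the background. Each tissue is set against a mean that holds the others, so these values are not independent of those of stele. The stele count of 32 was 19 without mock stele array 3 (13 higher and 6 lower), and the columella count of 19 was 6 without mock columella array 1 and 29 without mock stele array 1.

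Stele and xylem-pole pericycle, both inner tissues, were also compared directly, a comparison chosen after the tissue levels were seen. In mock roots 23 genes were higher in pericycle and 1 lower, where 7.72% of all tested genes were higher and 6.54% lower. All 23 were among the 33 photosynthesis genes outside NDH, whose median difference was 1.13, or 2.20-fold. No NDH gene was called (median 0.25), and of the 19 ribosomal and polymerase genes, with a median of -0.06, only rps16 was, at -0.995 ± 0.288 (adjusted p = 0.0161). The largest differences were psbB (1.91 ± 0.25, adjusted p = 1.3e-06), psbC and psbN (1.74 ± 0.25 and 1.74 ± 0.34), atpH (1.42 ± 0.28), atpF (1.21 ± 0.28), psaB (1.21 ± 0.32), petN (1.19 ± 0.33), psaA (1.15 ± 0.29) and rbcL (1.13 ± 0.33). The difference was not confined to the plastid genome. Of 9 nuclear photosynthesis genes, described below, 5 were called higher in pericycle and 0 lower (median 1.17). Of 9 nuclear genes for plastid ribosomal proteins 0 were called (median -0.11), and 3 were lower at an unadjusted p under 0.05.

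psbB, a chlorophyll-binding core antenna protein of photosystem II, had 5084, 3658 and 4775 in mock pericycle, against 873, 1427 and 1294 in mock stele. rpoB, the beta subunit of the polymerase, had 712, 793 and 1262 in mock pericycle, against 781, 1459 and 1732 in mock stele. rps16 had 327, 285 and 225 in mock pericycle, against 298, 722 and 836 in mock stele. The pericycle and stele arrays were thus well apart for psbB and overlapped for rpoB and rps16, where stele array 1 was low. Without that array the count was 11 higher and 3 lower and the median over the 68 genes was 0.12, against 0.50 with it; without mock pericycle array 3 it was 13 higher.

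Because the first stele array was low for nearly the whole set, the balance between the sets within an array was also read. It is the mean log2 signal of the 33 photosynthesis genes minus that of the 19 ribosomal and polymerase genes, and has meaning only as a difference between arrays, since probe sets differ in brightness. It was -0.31, -0.58 and -0.26 on mock pericycle arrays, against -1.26, -1.54 and -1.61 on mock stele arrays, so the groups did not overlap. It was -0.14 to -0.38 with auxin in pericycle and -1.49 to -1.57 with auxin in stele, close to the mock values in both. Mock epidermis lay at -1.19 to -1.05, mock columella at -0.53 to 0.42 and mock intact roots at -0.10 to 0.33. Columella arrays were the most scattered, and their first mock array was the highest of all 30.

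**Figure D4:**
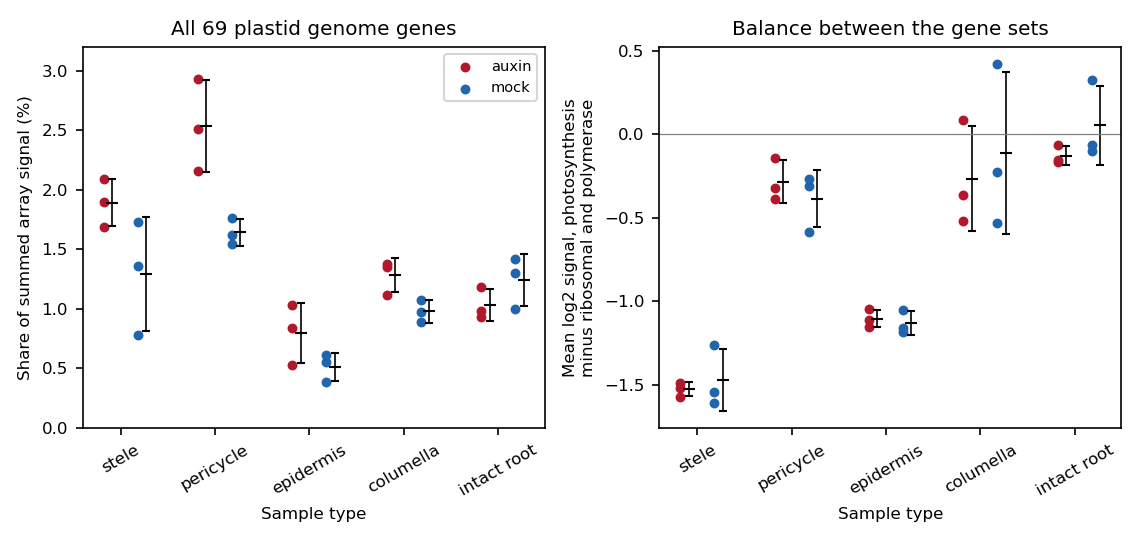
Share of the summed array signal held by the 69 plastid genome genes (left, percent) and mean log2 signal of photosynthesis genes minus ribosomal and polymerase genes (right) for each array, auxin in red to the left of mock in blue. Crosses with bars are group means ± SD (n = 3). The share is higher in auxin than in mock means in the 4 sorted tissues and lower in intact roots, whereas the balance separates stele and epidermis, below -1, from the other sample types in both treatments.

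Genes next to each other on the chromosome had closer values than pairs in general, but neighbours often share a role. Position was not tested apart from role. Over 63 pairs of neighbouring genes the median absolute difference between the 2 pericycle-minus-stele values was 0.37 on the log2 scale, against 0.63 over all 2278 pairs of tested genes. Over the 31 neighbouring pairs of different role it was 0.55. The 2278 pairs include pairs of the same role, and distant pairs of different role were not measured apart, so 0.55 and 0.63 are not a like comparison. The values of neighbours correlated with r = 0.384 over the 63 pairs, which share genes and arrays. The 6 genes from psbB to petD, which include the cytochrome genes petB and petD, had differences from 0.34 to 1.91 (median 1.34). The 7 tested genes from rpoA to rps19, a stretch that follows petD and also holds genes not tested, had differences from -0.45 to 0.25 (median -0.21). The 3 genes from rpoC2 to rpoB had differences from -0.54 to -0.10.

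psaC was the photosystem I gene in the block from ndhD to rps15, whose 8 genes differed between pericycle and stele by -0.19 to 0.56 (median 0.25). Its own difference was 0.42 ± 0.32 (adjusted p = 0.428), beside 1.15 and 1.21 for psaA and psaB, the reaction centre genes. In the average auxin response the same 8 genes had the values 0.70 to 0.93 (median 0.85), with psaC the lowest. Other genes with neighbours of another role, chosen after their values were seen, were rps14 and psaI. rps14, beside psaB, was at 0.49 ± 0.28, was not called and differed from psaB by 0.71. psaI, beside accD, was at -0.13 ± 0.26, the 1 photosystem I gene with a negative value, and differed from accD by 0.15. Further neighbours of different role lay far apart: rps16 and psbK differed by 2.20, clpP and psbB by 1.98 and psbA and matK by 1.78.

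**Figure D5:**
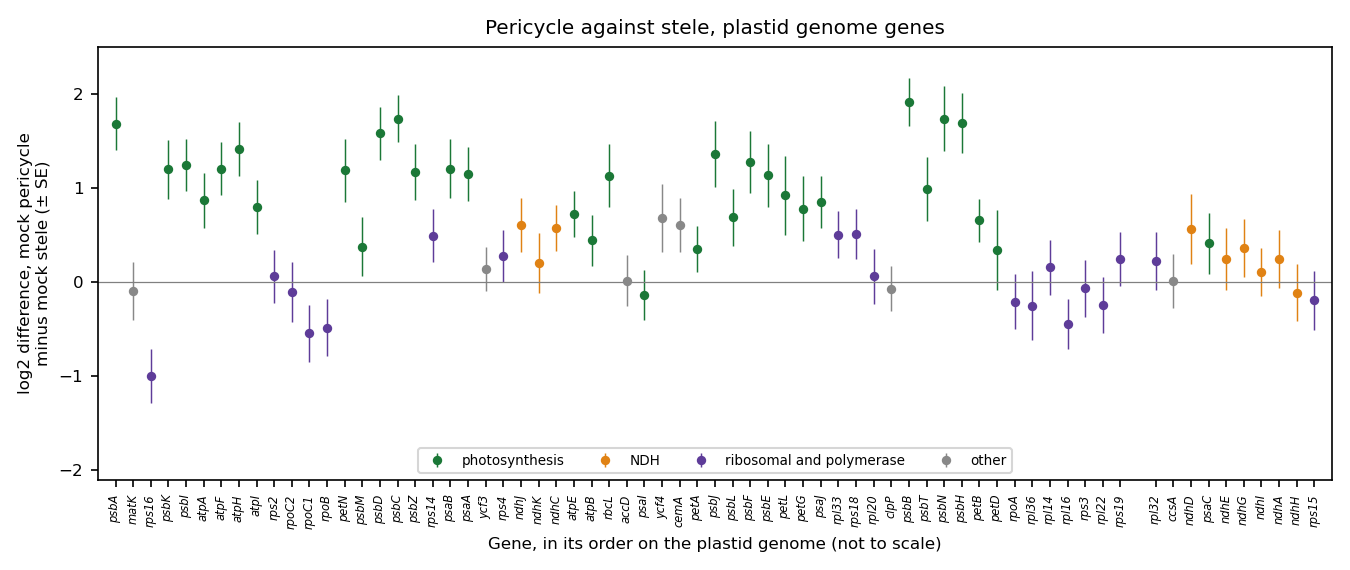
Log2 difference between mock pericycle and mock stele (pericycle minus stele, ± SE) for the 68 tested genes in their order on the plastid genome. Points are coloured by set. Many photosynthesis genes lie near or above 1, and many ribosomal and polymerase genes lie near or below 0. Exceptions include petD (0.34) and atpB (0.45), and rpl33 and rps18 (0.51 each). The NDH genes at the right lie between, with psaC among them.

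Averaged over the 4 tissues, mock sorted cells were lower than mock intact roots in 22 plastid genome genes and higher in 8, where 30.8% of all tested genes were lower and 30.2% higher, so the total is below the background. Of the 22 lower genes 20 were for photosynthesis outside NDH (median over the 33 genes -0.62), among them petN (-1.58 ± 0.26), psbA (-1.49 ± 0.22), psaA (-1.46 ± 0.23) and psbF (-1.20 ± 0.26). Of the 8 higher genes 5 were ribosomal or polymerase genes (median over the 19 genes 0.28), with rpl20 at 1.01 ± 0.23 and rpoC2 at 0.75 ± 0.25. The total of 30 was 16 without mock intact array 3 and 19 without mock intact array 2.

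The tissues differed in this, in comparisons chosen after the levels were seen. Stele was above intact roots in 14 of 19 ribosomal and polymerase genes and below in 17 of 33 photosynthesis genes (22 higher and 17 lower of 68, shares near the 29.8% and 26.2% of all tested genes). Pericycle was higher in 26 genes (24.9%) and lower in 0 (26.7%), the 26 being 13 of 19 ribosomal and polymerase genes, 5 of 9 NDH genes, 3 of 33 photosynthesis genes and 5 others. Epidermis was lower in 45 genes (28.4%) and higher in 0 (24.8%), and columella was lower in 7 (27.0%) and higher in 0 (24.2%). At an unadjusted p under 0.05, 0 genes were lower in pericycle, 0 were higher in epidermis and 1 was higher in columella. psbA, the photosystem II reaction centre protein D1, had 3346, 2189 and 3276 in mock pericycle, 696, 930 and 1069 in mock stele, 218, 531 and 341 in mock epidermis and 3989, 2127 and 2343 in mock columella, against 2655, 3395 and 4846 in mock intact roots. Pericycle and columella overlapped with intact roots for psbA, and stele and epidermis lay below. The pericycle count was 13 without mock intact array 1, and the columella count was 2 without mock intact array 3 and 11 without mock intact array 1 or the first auxin epidermis array.

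Nuclear genes that serve the same complexes were set beside them, as far as single-gene probe sets allowed. Of a list of 50 nuclear photosynthesis genes 9 were on such probe sets. All 9 were lower in mock sorted tissues than in mock intact roots (30.8% of all tested genes were). The log2 differences ran from -4.35 ± 0.28 for RCA (Rubisco activase) to -1.91 ± 0.21 for PRK (a Calvin cycle enzyme). The lowest value of a plastid genome gene was that of petN, -1.58. In the average auxin response of the sorted tissues 8 of the 9 rose (24.9% of all tested genes), PRK by 1.20 ± 0.13 and LHCB4.1, an antenna protein, by 0.68 ± 0.16. In intact roots 4 fell (5.34%), among them LHCB4.2 (-2.24 ± 0.29) and PRK (-1.12 ± 0.27). The difference between intact and sorted responses was called in 8, all lower in intact roots (5.81%).

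PRK averaged 235 in auxin-treated pericycle, against 110 in mock pericycle, and 188 in auxin-treated intact roots, against 429 in mock intact roots. For comparison, 0 of the 68 plastid genome genes were called in intact roots in limma (3 lower at an unadjusted p under 0.05), and the 2 groups of genes were not tested against each other. The mean log2 signal of the 9 nuclear genes was 5.30 to 6.98 on the mock sorted arrays, against 8.64 to 9.27 on the mock intact arrays. It was 5.30 to 5.74 in mock stele and 5.34 to 5.52 in mock epidermis. Medians of all probe sets were 6.41 to 6.47 and 6.14 to 6.28 on those arrays, so these genes were dim there on average. The median log2 signal of the plastid genome genes was 7.88 to 9.10 in mock epidermis and 9.44 to 10.8 in the other mock sorted tissues, against 9.81 to 10.1 on mock intact arrays, so epidermis lay below intact roots and the others overlapped with them or lay above. The part of green cells in either result was not tested.

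Of 32 nuclear genes for plastid ribosomal proteins 9 were tested. In the average sorted response 5 of them rose (24.9% of all tested genes), PRPL3 by 0.62 ± 0.16, PRPL5 by 0.61 ± 0.18 and PRPL29 by 0.51 ± 0.18. In intact roots 0 were called in limma (0 also at an unadjusted p under 0.05). RPOT2, a nuclear gene for a phage-type organelle polymerase and the only one measured of the 20 on the plastid transcription list, rose by 0.41 ± 0.17 in the sorted tissues (adjusted p = 0.0497). Of 13 nuclear NDH genes 2 were tested. NDHS fell in intact roots (-1.63 ± 0.27) and was not called in the sorted response (0.03 ± 0.13, adjusted p = 0.866), and NDHL was called in neither.

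The 16 mitochondrial genome genes on single-gene probe sets served as a second organelle genome. In the average auxin response of the sorted tissues 0 of 16 were called in limma (0 also at an unadjusted p under 0.05), with a median log2 change of 0.01. By tissue the medians were 0.21 in stele, 0.06 in pericycle, 0.25 in epidermis and -0.50 in columella, with 0 called in each. At an unadjusted p under 0.05, 2 were higher in epidermis and 5 lower in columella. In mock roots 8 of the 16 passed the F-test among the sorted tissues (35.0% of all tested genes). Against the other sorted tissues 8 were lower in epidermis (33.8% of the genes past the F-test) and 5 higher in pericycle (26.8%). Against intact roots 11 were higher in the mock sorted tissues (30.2% of all tested genes) and 0 lower (30.8%). The first mock stele array and both first epidermis arrays, low for plastid genome genes, were also the lowest of their groups here. The median log2 signal of the 16 genes was 9.57 on that stele array, against 10.3 and 10.8 on the others. On the first epidermis arrays it was 8.92 in mock and 9.33 with auxin. In auxin-treated columella array 1 was lowest for the 16 genes (9.04) but highest for plastid genome genes (10.3).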

How the data were processed

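The authors deposited an intensity for each probe set on each array. The submitters' processing notes name MAS5, with no version or genome build. Leaving out 2% of probe sets at each end, every array had a mean of 250.0. RNA had been amplified before labelling, per the labels' protocols. Of 22746 probe sets without the 64 controls, 13513 match 1 gene in the platform annotation, 503 match several and 8730 are not listed. Names and gene order came from RefSeq's table for TAIR10.1.

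Where a gene had several probe sets, the brightest on average was used. Genes above the 40th percentile of an array on at least 3 arrays were tested (9324 of 13356). Log2(signal + 16), which understates changes of dim genes, was fitted for the 10 groups with limma 3.58.1 under R 4.3.3 (20 residual degrees of freedom, intensity trend), and p-values were adjusted by Benjamini-Hochberg over all tested genes. Tissue-against-others contrasts were adjusted over genes past the F-test. Tables and figures used Python 3.11.15 with pandas 2.3.3, numpy 2.4.6 and matplotlib 3.10.9. The fit was checked on simulated data in which each gene varied independently. The members vary together, so the check does not cover counts over them. With 3 arrays per group, their number limits the precision.

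Named genes were psaC, ndhE and ndhG, then, per role and comparison, up to 3 called genes of largest change and 1 not called; others named are said to be chosen after their values were seen, or illustrate such a gene. Alternatives were 2 pseudocounts, 2 filters, quantile and 75th-percentile scaling, replicate blocks, array weights, no trend, limited fits, all probe sets, and each array left out. The members and lists were chosen with earlier results of these data known. Mitochondrial genes were chosen by symbol after the files were seen. The arrays of equal number were not treated as pairs: within a sample type their deviations correlated above 0.1 for all 3 numbers in none of the 5.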

Additional observations from a re-analysis of the deposited data

Results flagged for a closer look

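The auxin response of intact roots differed from that of the sorted tissues by a test of the difference in 23 of 68 plastid genome genes. All 23 had the lower response in intact roots, as had 5.81% of all tested genes. rpl32 differed by -1.24, ndhC by -1.18, psbZ by -1.17 and ndhG by -1.11 on the log2 scale. Of the 9 nuclear photosynthesis genes measured, 8 differed in the same direction. Intact roots were not digested or sorted and had a shorter exposure to auxin, which cannot be told apart here. The 8 probe sets that match several plastid genome entries were left out of the counts above. All 8 rose in the average auxin response of the sorted tissues, in a fit where 4197 of all 17002 tested probe sets rose and 2980 fell.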

How the results depend on the processing

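The count for the average sorted response was between 60 and 68 in every fit run. For stele, 14 genes were called with no intensity trend and 49 with the replicate block within each sample type, which was added after seeing the data. For pericycle the counts were 7 with a pseudocount of 1, 8 without trend, 0 with array weights, 25 with the replicate block, 39 with the block within types and 20 without both first epidermis arrays. For epidermis they were 9 without trend, 40 with the block within types and 10 without both first epidermis arrays. For columella they were 0 without trend, 3 in the limited fit, 5 with the replicate block, 6 with weights, 9 with the block within types and 5 without both first epidermis arrays. For intact roots they were 3 with weights, 2 in the limited fit and 2 with the block within types, all lower. For intact minus sorted they were 12 without trend, 35 with the replicate block, 47 with weights and 50 with the block within types. For mock columella against the other tissues they were 29 with the replicate block and 30 without both first epidermis arrays. For mock columella minus mock intact they were 16 after quantile normalization, 14 with the replicate block, 19 with weights, 14 in the limited fit and 14 without both first epidermis arrays. The causes were not tested. The block changed no other count by over 1.5 times, and equal numbers are a shared number only: only in stele did every array correlate best with its own number.

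Leaving out 1 array, counts ran from 3 to 38 in stele, 1 to 20 in pericycle, 1 to 43 in epidermis, 0 to 3 in columella, 0 to 0 in intact roots, 60 to 68 for the average response, 4 to 36 for intact minus sorted and 0 to 0 for the response F-test. In mock roots they ran from 63 to 68 for the F-test, 19 to 38 for stele, 53 to 63 for pericycle, 57 to 67 for epidermis and 6 to 29 for columella against the other tissues, 13 to 27 for pericycle minus stele, and against intact roots 16 to 31 for all sorted tissues, 27 to 40 for stele, 13 to 33 for pericycle, 40 to 48 for epidermis and 2 to 11 for columella. Quantile normalization moved the median of all tested genes in stele from 0.14 to 0.04, and that of the plastid genome genes from 0.69 to 0.71. Among 292 results for single named genes, 12055 values under the alternatives kept direction and side of the threshold, 588 kept direction but lost the call and 0 reversed. These results were chosen for being called in the main fit or named in the text, and most alternatives used nearly the same arrays. Reversals were therefore unlikely beforehand, and the counts do not measure reliability. For F-tests, which have no direction, only the side of the threshold was compared. Dim signals limit ndhF, not tested, and psbT.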

Other observations

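Those 8 probe sets stand for rps12 (2 probe sets), rpl2, rpl23, rps7, ycf1, ycf2 and ndhB. Several of these genes lie in the inverted repeat, so more than 1 copy can contribute to the signal. The fit for them covered all probe sets of the array. In the average auxin response of the sorted tissues ycf1 rose by 0.71 ± 0.16 (log2 ± SE), ndhB by 0.66 ± 0.15, rps7 by 0.60 ± 0.12, rpl2 by 0.58 ± 0.15, rpl23 by 0.42 ± 0.15 and ycf2 by 0.40 ± 0.13, and the 2 rps12 probe sets by 0.63 ± 0.11 and 0.49 ± 0.14. In intact roots all 8 had negative values, from -0.38 for ndhB to -0.11 for rps7, and none was called in limma. ndhB had a lower response in intact roots than in the sorted tissues (-1.04 ± 0.33, adjusted p = 0.0336), as had 1 of the rps12 probe sets (-0.74 ± 0.24, adjusted p = 0.031). Between mock pericycle and mock stele the values ran from -0.36 for ycf2 to 0.46 for rps7, with none called.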
